A study of Solanum lycopersicum with 6 samples.

Results

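The long peak-rich arm of tomato chromosome 2 is the sequence from 29 Mb to the end of the last peak at 53437767 on genome build SL4.0. It was defined from measured values, namely the number of accessibility peaks in each 1 Mb bin. The arm begins where the run of bins with the greatest summed shortfall against the mean bin ends, and its members are the 7111 peaks whose midpoint lies at or beyond that boundary. They are 8.81% of the 80696 peaks of the whole list and 87.6% of the peaks on chromosome 2, on 45.7% of that chromosome's span.

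The peaks come from ATAC-seq of inflorescences of tomato (Solanum lycopersicum) mutant for anantha-e1546 in an M82 background, from plants grown under long days. All 6 samples belong to this 1 genotype and tissue, so there is no wild-type or other control group. The labels call the samples biological replicates and do not say how many plants each was taken from. Mutants of anantha, which lack an F-box protein that gives meristems floral identity, form masses of meristems where flowers would stand, and the submitters describe the tissue as enriched in meristems. One list of peaks was deposited for the 6 samples together, so no value per replicate, no replicate error and no sequencing depth can be given. The tissue could not be checked against marker genes, because the list holds positions and no gene values.

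ATAC-seq uses a transposase that cuts and tags DNA preferentially where nucleosomes leave it exposed, and stretches with many cuts are reported as peaks. In plants such stretches are typically found at promoters and at other regulatory sequence close to genes. Tomato chromosomes have gene-rich euchromatic arms and large pericentromeres of repeat-rich heterochromatin. Chromosome 2 is acrocentric, and its short arm carries the nucleolus organizer with the ribosomal RNA genes, so that nearly all of its euchromatin lies in the long arm. Loci on this chromosome are known from the study of inflorescence and fruit form. ANANTHA itself has a chromosome 2 identifier in the labels, and RefSeq's gene table for another tomato assembly places WUS, a homeobox gene that maintains stem cells in shoot meristems, and OVATE, which controls fruit shape, on the same chromosome. That table shares no coordinates with SL4.0, so no peak below was assigned to a gene, exon, intron or promoter, and no sequence is shown.

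Peak density was low over the first 4 Mb of the arm, at 146.0 peaks per Mb, and higher over the rest. The whole arm had 291.0 peaks per Mb (95% exact Poisson interval 284.3 to 297.8), and the peaks covered 28.2% of it, or 6.90 Mb. Because peak counts set the boundary, these densities describe the arm and carry no test. The Poisson intervals given here and below cover counting error of independent peaks only. Counts in 100 kb windows of the arm had a variance 5.20 times their mean, so these intervals are too narrow to compare bins, segments or arms. The 3 bins just outside the boundary held 46, 45 and 64 peaks. The bins just inside it held 133, 116 and 153 peaks, followed by 182 from 32000001 to 33000000 and 309 from 33000001 to 34000000. The step from 182 to 309 peaks thus lay 4 Mb inside the boundary. Later whole bins held between 248 and 404 peaks. The last peak outside, at 28970739 to 28971066, was 328 bp wide with a −log10 q of 3.23, and the first peak inside, at 29038588 to 29038912, was 325 bp wide with 3.84. The next peak outward measured 529 bp with 5.61 and the next inward 948 bp with 6.01.

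Beyond 33 Mb every whole bin held at least 248 peaks. The sparsest 3 whole bins of the arm were all among its first 3, and the lowest, from 30000001 to 31000000, had 116 peaks (95% exact Poisson interval 95.9 to 139.1) and was 10.9% covered. The densest bin, from 51000001 to 52000000, had 404 peaks (365.6 to 445.4) and was 42.2% covered. It was followed by 52000001 to 53000000 with 380 peaks and by 49000001 to 50000000 with 362. Over the 24 whole bins the share of sequence covered moved with the number of peaks (Spearman's rho 0.94), while median width did not (rho 0.00) and median −log10 q did so weakly (rho 0.23). These correlations describe bins of 1 list and carry no test.

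**Figure D1:**
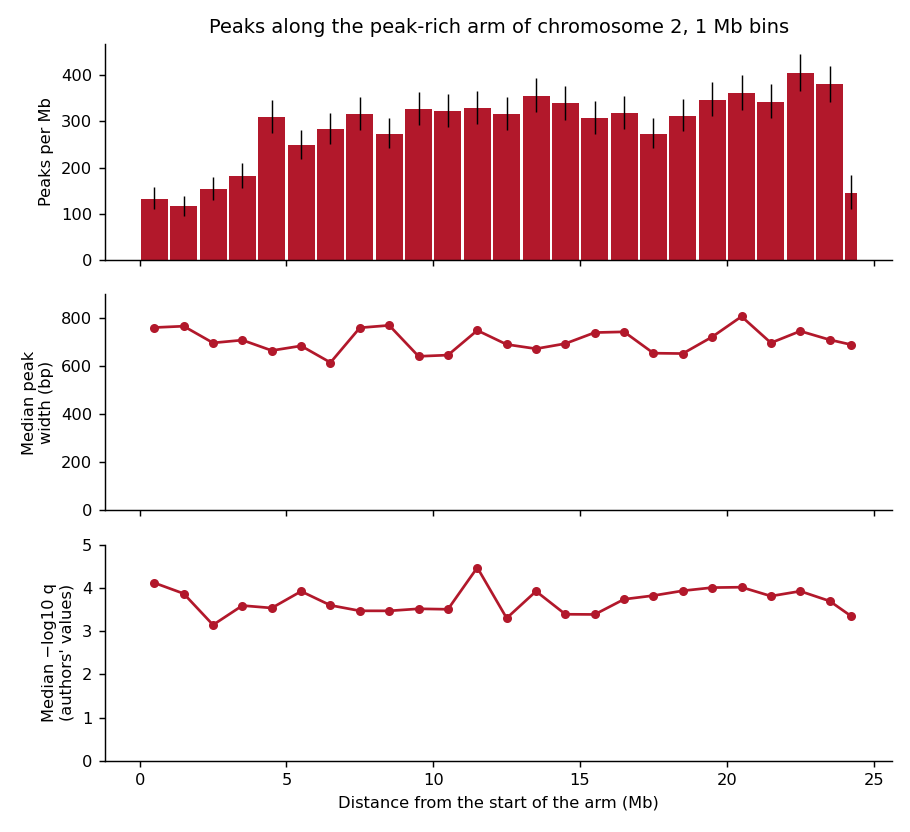
Peaks per Mb (bars, with exact Poisson 95% intervals), median peak width and median −log10 q in 1 Mb bins, plotted against the distance from the start of the arm. The last bin covers 0.44 Mb. Density lies between 116 and 182 peaks per Mb in the first 4 bins and at 248 or more in the later whole bins, while width and −log10 q show no such step.

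Over 5 segments of the arm, density was lowest in the first and highest in the last, without a rise at every step. The median peak changed little. The first 4 Mb had 146.0 peaks per Mb (95% exact Poisson interval 134.4 to 158.3). The segments from 33, 39 and 45 Mb, each 6 Mb long, had 292.5 (279.0 to 306.5), 328.3 (314.0 to 343.2) and 325.8 (311.5 to 340.6). The final 2.44 Mb had 347.4 (324.4 to 371.7). Median widths in these segments were 740, 685, 698, 721 and 723 bp, and median −log10 q values were 3.67, 3.55, 3.62, 3.85 and 3.76. The sparse first segment thus had the largest median width of the 5, and its median −log10 q lay within the range of the others. The shares of peaks with a q above 0.01 in the 5 segments were 19.7%, 18.9%, 15.6%, 14.7% and 18.1%.

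The tip of the arm was sparse. The 100 kb windows from 53100001, 53200001 and 53300001 held 8, 9 and 8 peaks, after 37 in the window from 53000001. The last peak of the arm lay at 53437112 to 53437767, with a −log10 q of 3.22. The final 300 kb before the end of the last peak held 22 peaks, against 84.1 ± 23.6 (SD, n = 11) on the other chromosomes, whose lowest value was 44. This length was chosen after the windows were seen and the difference was not tested.

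Counted in Mb inward from the end of the last peak, chromosome 2 stayed dense farther than the mean of the other chromosomes, and chromosome 1 did likewise. The first Mb of chromosome 2 held 267 peaks, fewer than 10 of the other 11 chromosomes (309.7 ± 34.1, SD, n = 11). The second held 399, more than any other chromosome (319.3 ± 44.1). By the 10th Mb the count was 280 against 180.1 ± 97.6, and by the 15th it was 330 against 99.5 ± 80.5. At the 20th Mb chromosome 2 had 268 peaks and the others 67.6 ± 90.5. Chromosome 1, which these means include, held 286 peaks in the 10th Mb, 278 in the 15th and 321 in the 20th, the last above chromosome 2. In 23 of the 25 Mb counted chromosome 2 was above the mean of the others, and in 11 it was the densest of the 12 chromosomes. The peak-rich arms at the end of the other chromosomes, cut by the same rule on bins, were 7.26 to 23.8 Mb long.

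**Figure D2:**
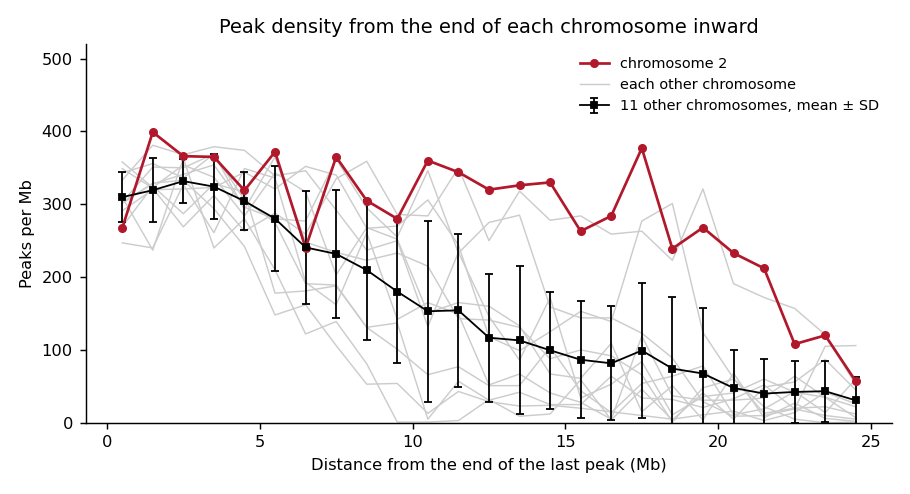
Peaks per Mb against the distance inward from the end of the last peak, for chromosome 2 (red), each of the 11 other chromosomes (grey lines) and their mean ± SD (black). Chromosome 2 starts below the mean with 267 peaks and holds at least 212 peaks per Mb through the 22nd Mb, where the others average 40.1. One grey line, chromosome 1, stays high as well, with 172 peaks in that Mb.

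To set the arm beside the peak-rich ends of other chromosomes, the same bin rule was applied to each of them, which gave 22 other arms with 57627 peaks. The arm of chromosome 2 was the longest, at 24.4 Mb against 10.2 ± 5.37 Mb (SD, n = 22), and the densest, with the other arms at 254.5 ± 14.6 peaks per Mb and at most 277.0. This rank rests on the boundary: with the arm begun at 27 Mb it had 273.1 peaks per Mb, below the starts of chromosomes 8 (277.0) and 5 (276.4) and the end of chromosome 1 (273.5). The arm most like it in length, the 23.8 Mb at the end of chromosome 1, had 273.5 peaks per Mb (266.9 to 280.2), and the 20.3 Mb at the end of chromosome 3 had 248.8 (242.0 to 255.8). Its share of covered sequence, 28.2%, was below that of 1 arm, the start of chromosome 5 with 28.7%. Of its 24 whole bins, 16 (66.7%) held 300 peaks or more, compared with 77 of 219 (35.2%) in the other arms. All of these values follow from the peak counts that cut the arms, so no test is given.

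The width of a peak and the authors' −log10 q and score were not used to cut the arms. In the 3 properties compared from these, the chromosome 2 arm lay within the range of the other arms. The median peak of the arm measured 705 bp (quartiles 450 and 1161 bp), and the other arms had median widths of 701.4 ± 20.3 bp (SD, n = 22; exact two-sided permutation over arms, p = 0.96, adjusted by Benjamini-Hochberg across 3 properties p = 0.96). The difference of 3.61 bp changed sign when only peaks with a q at or below 0.01 were kept (-9.20 bp). Its median −log10 q was 3.70, and the other arms had 3.54 ± 0.17 (exact permutation p = 0.26, adjusted p = 0.78), with 20 of 22 below it. Its share of peaks at the score cap of 1000 was 63.6% (exact binomial interval 62.5 to 64.7), and the other arms had 61.9% ± 1.95 (exact permutation p = 0.61, adjusted p = 0.91), with 16 of 22 below it. A single arm against 22 cannot give a two-sided p under 0.087, so this test could not have passed 0.05. The arms are parts of 1 list, and the p-values measure the spread among arms and not among plants.

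Longer arms had the higher medians of −log10 q (Spearman's rho 0.83 over 23 arms) and the larger shares at the cap (rho 0.85), described without a test. Among the 7 other arms of 10 Mb or longer the median −log10 q was 3.70 ± 0.09 and the share at the cap 63.8% ± 0.89 (SD, n = 7), so the chromosome 2 arm at 3.70 and 63.6% lay within the spread of arms of like length. In 1 Mb bins of like density, with 250 to 350 peaks, the 15 bins of the arm had a mean of their median widths of 696.9 ± 49.2 bp and the 117 bins of other arms 700.5 ± 48.8 bp (SD over bins). The median −log10 q of such bins was 3.67 ± 0.31 on the arm and 3.63 ± 0.29 elsewhere.

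**Figure D3:**
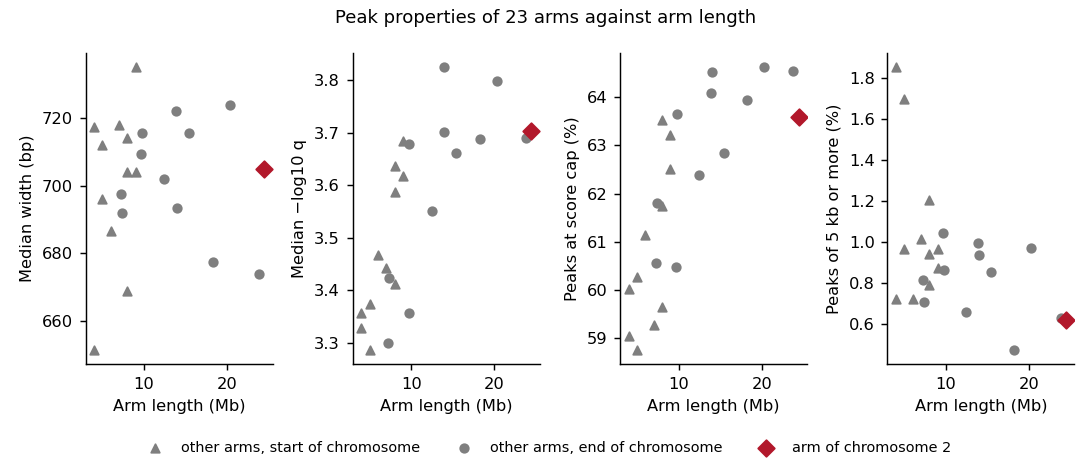
Median width, median −log10 q, share of peaks at the score cap and share of peaks of 5 kb or more against arm length, 1 point an arm, with no error bars. The chromosome 2 arm (red diamond) lies at the right edge with the greatest length and, in all 4 panels, within the range of the other 22 arms.

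Both tails of the width distribution were thin on the arm. Peaks of 5 kb or more numbered 44, or 0.62% of its peaks (exact binomial interval 0.45 to 0.83), and 21 of the 22 other arms had a larger share, with 0.94% ± 0.32 (SD, n = 22). The end of chromosome 1 had 0.63%, close to the value of the chromosome 2 arm. The end of chromosome 6 had the smallest share, 0.47%, and the start of chromosome 6 the largest, 1.85%. Over the 23 arms this share tended to fall with arm length (Spearman's rho -0.38, a description), and the chromosome 2 arm was the longest. Peaks of 250 bp or less numbered 309, or 4.35% (3.88 to 4.85), and 17 of 22 arms had a larger share. The mean width was 970 bp against 1004 ± 34.4 bp in the other arms, while the median was slightly above theirs. These tails were singled out after their values were seen and were not tested.

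The widest peak of the arm, at 33774985 to 33787333, spanned 12349 bp and had a −log10 q of 19.8, and it ranked 23rd in width on the 12 chromosomes. Next came 40610066 to 40620847 with 10782 bp and a −log10 q of 12.5, and 46251472 to 46262141 with 10670 bp and 14.4. The 4th and 5th, at 37221730 to 37231654 (9925 bp) and at 33069670 to 33078007 (8338 bp), had −log10 q values of 8.06 and 9.85. Only the widest of these 5 was also among the 100 strongest peaks of the arm. The 44 peaks of 5 kb or more covered 290.5 kb, 4.21% of the sequence in peaks, and their −log10 q ran from 4.58 to 19.8 with a median of 13.9. The 5 segments held 4, 11, 15, 12 and 2 of them. These were 0.68%, 0.63%, 0.76%, 0.61% and 0.24% of the peaks of each segment, the smallest share being in the last.

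Peak strength on the arm ran from a −log10 q of 0.97 to 21.7, with quartiles of 2.26 and 6.80. The strongest peak, at 39449833 to 39452883, was 3051 bp wide with a −log10 q of 21.7 and ranked 63rd on the 12 chromosomes. The second, at 29288484 to 29292222 in the sparse first Mb, had 21.6. They were the arm's only peaks among the 100 strongest of the 12 chromosomes, although the arm held 8.87% of their peaks. The 3rd spanned 40676420 to 40677942 (20.9), the 4th 44354874 to 44357835 (20.8) and the 5th 33064097 to 33067180 (20.6). The 6th and 9th were close to each other, at 36177459 to 36179534 (20.4) and 36099849 to 36101573 (19.9). The 7th, from 50525906 to 50526816 (20.1), was the narrowest of the 10 with 911 bp. It and the 8th, from 51463508 to 51465686 (19.9), were the 2 with no other peak within 500 bp. The 10th spanned 41644466 to 41646771 (19.9). The other 8 had a neighbour within 100 bp.

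Very strong peaks made up a small share of the arm. A −log10 q of 15 or more was carried by 150 peaks, or 2.11% (exact binomial interval 1.79 to 2.47), beside 2.56% (2.43 to 2.69) of the pooled peaks of the other arms. These intervals cover counting error only. A −log10 q of 10 or more was carried by 11.2% of the arm's peaks and by 11.8% of the pooled peaks, with overlapping intervals. The spread of both shares over the 22 other arms is not given, and neither difference was tested. The highest −log10 q of the arm was below that of 18 of the 22 other arms, although the arm had the most peaks. A q above 0.01 was carried by 16.8% of its peaks, and by 16.7% of the pooled peaks of the other arms. The weak end of the distribution was thus close to that elsewhere.

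Wider peaks were stronger (Spearman's rho 0.58 over the 7111 peaks, a description), except at the weak end. Peaks with a −log10 q below 2 had a median width of 542 bp, and those from 2 to 4 a median of 497 bp. From 4 to 6 the median was 737 bp, from 6 to 10 it was 1116 bp, from 10 to 15 it was 1726 bp, and at 15 or more it was 2418 bp. The score was at its cap in 0.42% of peaks below 2, in 47.0% from 2 to 4 and in all peaks from 6 upward, so on this arm it separates only the weaker peaks.

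Most peaks of the arm had a close neighbour. The 7110 gaps between neighbouring peaks had a median of 624 bp, edge to edge, with quartiles of 120 and 2268 bp. Gaps of 100 bp or less numbered 1614, or 22.7%, the shortest being 31 bp, next to the gap setting of 30 bp that the name of the authors' list records. The share of gaps of 100 bp or less was below that of 18 of the 22 other arms (23.9% ± 1.35, SD, n = 22), although the arm was denser. Gaps of 501 to 2000 bp made up 14.6% (501 to 1000 bp) and 13.2% (1001 to 2000 bp), against 13.5% ± 0.83 and 12.1% ± 0.77 in the other arms. Distances between midpoints had a median of 1766 bp, against 1811 ± 48.9 bp in the other arms. A neighbour within 2 kb was present for 91.2% of peaks, against 90.5% ± 1.07. None of these differences was tested, since spacing follows from density.

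Long gaps were few. Gaps over 20 kb numbered 105, or 1.48% of gaps, a share below that of every other arm (2.27% ± 0.45, lowest 1.69%). Together they took up 18.2% of the arm, and 38 of them lay in the first 4 Mb. Long gaps depend on the peak counts that cut the arms, so this rank was not tested. It was not computed for another boundary. The longest stretch without a peak ran from 30841676 to 31274057 (432.4 kb), the next from 34979797 to 35185398 (205.6 kb) and the third from 32650159 to 32825261 (175.1 kb). Of 244 whole 100 kb windows, 6 had no peak, and 5 of these were before 33 Mb. The median window held 31 peaks (quartiles 21 and 38), and the richest, from 51100001 to 51200000, held 56. Of the arm's 7111 peaks, 8 had more than 20 kb to both neighbours. On the 12 chromosomes 929 of 80175 peaks did, but these include the peak-poor stretches outside the arms, so the counts are not alike.

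**Figure D4:**
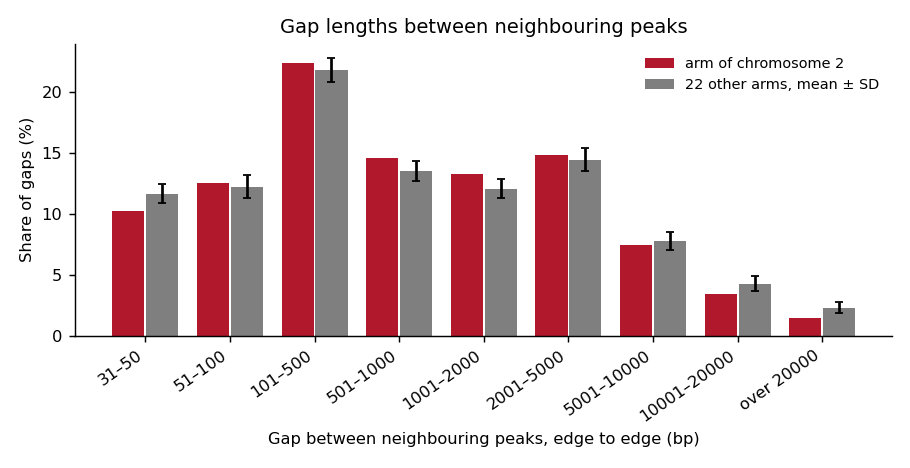
Share of gaps between neighbouring peaks by gap length, for the chromosome 2 arm (red) and as the mean ± SD of the 22 other arms (grey). The arm has a smaller share at 31 to 50 bp and above 10 kb and a larger share from 501 to 2000 bp.

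The strengths of neighbouring peaks were unrelated at gaps of 100 bp or less and at gaps over 2000 bp. Pairs at gaps between these limits were not examined. In the 1614 pairs with a gap of 100 bp or less, Spearman's rho between the −log10 q values of the partners was 0.02, and in the 1928 pairs more than 2000 bp apart it was -0.03, both as descriptions. The wider partner had a median width of 1126 bp and a median −log10 q of 5.99, the narrower one 513 bp and 2.90, and the wider one was the stronger in 75.7% of pairs. In the pairs more than 2000 bp apart the wider one was the stronger in 68.7%, and wider peaks were stronger over the arm as a whole. Peaks whose nearest neighbour was within 100 bp had a median −log10 q of 3.90, those at 101 to 500 bp had 3.54, those at 501 to 2000 bp had 3.43, and those at 2001 to 10000 bp had 3.90. Strength was thus lowest at intermediate distances.

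Joined over gaps of 500 bp or less, the 7111 peaks formed 3905 units, of which 2244 were single peaks and 849 were pairs. Clusters of 5 or more peaks numbered 178 and held 1088 peaks, or 15.3% (exact binomial interval 14.5 to 16.2), compared with 16.5% ± 2.30 in the other arms (SD, n = 22). There were 7.28 such clusters per Mb on the arm and 6.91 ± 0.87 per Mb elsewhere. The first 4 Mb held 12 of them, whereas the 6 Mb from 39 to 45 Mb held 53, or 8.83 per Mb. The highest −log10 q of a unit rose with its size, from a median of 3.56 for single peaks to 6.08 for pairs, 11.2 for clusters of 5 to 9 and 14.3 for the 10 clusters of 10 or more. A maximum over more peaks is higher by construction.

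The cluster with the most peaks, at 36140425 to 36159505, held 17 peaks over 19081 bp, 84.2% of it covered. Its strongest peak, at 36146796 to 36148730, had a −log10 q of 13.0, and the weakest, at its left edge, had 1.27. The 6 strongest of the 17 were among the 8 peaks between 36143844 and 36153663. The first 3 peaks of the cluster and its last 5 had values from 1.27 to 2.98. The clusters next in peak number lay at 38278022 to 38294583 (12 peaks, highest −log10 q 14.1) and at 50970305 to 50988538 (11 peaks, 17.8). A further 11 peaks each formed the clusters from 51113005 to 51126531 (12.5) and from 52359705 to 52369508 (12.6). Of these 5 clusters, 3 lay beyond 50 Mb.

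**Figure D5:**
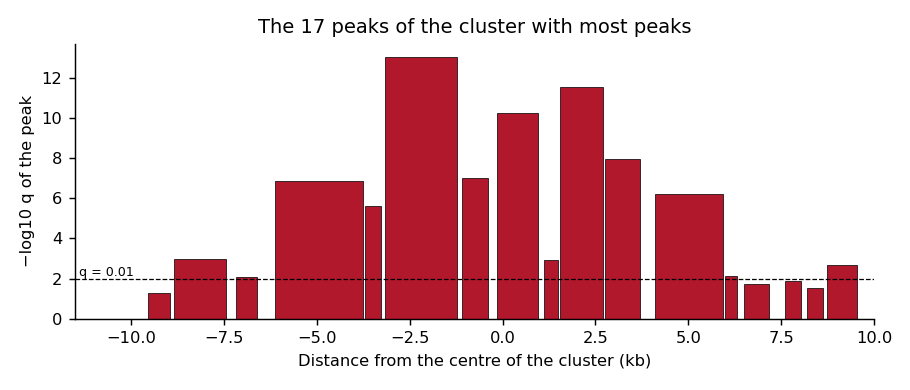
The 17 peaks of the cluster with the most peaks, each drawn as a bar from its start to its end (distance from the cluster's centre in kb) with its −log10 q as height; the dashed line marks a q of 0.01. The strong peaks, up to 13.0, stand in the middle of the cluster and weaker ones flank it.

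The longest cluster, at 41803478 to 41825867, spanned 22390 bp with 8 peaks and was 96.2% covered. In length it was followed by the 17-peak and the 11-peak cluster at 50970305 and by the cluster at 40607008 to 40625060, which spanned 18053 bp with 6 peaks. In that one a single peak, the second widest of the arm, made up 59.7% of the length. The 5th in length, at 37147390 to 37165069, spanned 17680 bp with 9 peaks whose median −log10 q was 13.6, compared with 2.98 to 10.3 in the 4 longer ones. The longest cluster of any other arm, joined over the same distance, spanned 53015 bp.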

How the data were processed

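ATAC-seq libraries from 6 samples of 1 group were analysed through the 1 peak list that the authors deposited for them. Genrich 0.6, bedtools, SAMtools, Picard, BWA and Trimmomatic were used in roles not given here, per the submitters' processing notes. The treatment of duplicates, of reads with several positions and of the transposase offset is not given in the sources used here, and neither is depth. The name of the list records settings of 0.5 for q and 30 bp for gaps. The deposited score is a whole number capped at 1000, and each peak's name repeats it beside the −log10 of a q value deposited by the authors. Build SL4.0 is read from the chromosome names.

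Members, comparisons and limits were chosen with earlier results of these data known. Positions are 1-based. Arms are the sequence outside each chromosome's run of 1 Mb bins with the greatest summed shortfall against the mean bin (103.1 peaks). Clusters join peaks over gaps of 500 bp or less. Peaks named are the 10 strongest and 5 widest, with the clusters of most peaks and greatest length. Width, −log10 q and share at the cap were compared by exact permutation over 23 arms. Bin, cluster and permutation code was tested on simulated data. Intervals cover counting error only. Alternatives are given in the closing section. Software was scipy 1.17.1, numpy 2.4.6, matplotlib 3.10.9 and pandas 2.3.3 under Python 3.11.15.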

Additional observations from a re-analysis of the deposited data

How the results depend on the processing

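The difference in median −log10 q between the arm and the other arms, 0.16, fell to 0.10 against end arms alone and to 0.00 against arms of 10 Mb or longer. The difference in median width, 3.61 bp, became -9.20 bp with a q at or below 0.01 and -16.0 bp with peaks within 100 bp merged, and the difference in the share at the score cap, 1.65 percentage points, became -0.26 among arms of 10 Mb or longer. The cause was not tested. With each other chromosome left out singly, the difference in −log10 q was 0.15 to 0.18, that in width 0.73 to 5.10 bp and that in the share at the cap 1.45 to 1.87 points. Adjusted p-values lay between 0.50 and 1 over the 58 alternatives with a test, none of which has enough arms to reach 0.05. In the last 10 Mb of every chromosome the width difference was 24.95 bp, with chromosome 2 above all 11 others (exact permutation p = 0.17, the smallest that comparison allows, adjusted p = 0.50). On chromosomes 5, 10, 11 and 12 the end arms are 7.26, 9.78, 7.36 and 9.69 Mb long. Their last 10 Mb thus includes peak-poor sequence, whereas that of chromosome 2 lies within its arm. From end arms to the last 10 Mb, the median width of chromosome 2 went from 705 to 724 bp. The mean of the others went from 702.1 to 699 bp. What lies behind the width difference was not tested. Peaks per Mb became 242.2 with a q at or below 0.01, 224.9 after merging, 273.1 with the arm from 27 Mb, where it is no longer the densest, and 313.0 from 32 Mb. The median spacing became 2097 bp with a q at or below 0.01, 2581 bp after merging and 624 bp edge to edge. The share of peaks in clusters of 5 or more became 10.7% with a q at or below 0.01, and 1.505%, 37.1% and 60.8% when joined over 100, 1000 and 2000 bp. No paired analysis was possible because the list does not separate the replicates, and for the same reason none could be left out. Depth is unknown, so a stretch without a peak is one without a call.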

Other observations

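Several of the strongest peaks, widest peaks and largest clusters of the arm were near each other, as seen after they had been listed. Between 36099849 and 36179534 lay the 9th and the 6th strongest peak, 75.9 kb apart, with the 17-peak cluster between them, 38.9 kb from the first and 18.0 kb from the second. The 100 kb window from 36100001, which holds most of this stretch, had 54 peaks and was 1 of 8 windows with 50 or more. At 33 Mb, in the first bin of over 300 peaks, the 5th strongest peak was 2489 bp from the 5th widest, in the same cluster of 4 peaks. The 3rd strongest peak, at 40676420, was 55.6 kb from the second widest, in the 1 Mb bin with the highest median −log10 q of the arm (4.47) and the largest share at the score cap (70.8%).

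Of the 8 windows with 50 or more peaks, only that from 36100001 contained any of the 10 strongest peaks. It held both the 6th and the 9th. The 10 strongest peaks lay in windows with 19 to 54 peaks, beside a median of 31 over all windows. These are values picked from the list and were not tested.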
